A study of Homo sapiens with 6 samples.

Results

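The mitosis and spindle genes are 48 genes that drive entry into mitosis, build the spindle, hold chromosomes on it, separate them and split the cell. They were taken by name from a list, as the rows of the deposited expression table whose gene name equals a listed one. All 48 were present among the 27887 rows, and 47 passed the minimum level, a mean of 1 FPKM over all libraries, and entered the test. RNA-seq had been done on KYSE450, an established human line of esophageal squamous cell carcinoma, in 6 libraries. The 3 shHMGB2 libraries were made from cells that received a virus with a short hairpin RNA against HMGB2, and their genotype label is HMGB2 knockdown. The 3 mock libraries were made from mock-infected cells with the genotype label WT (wild type). The promoter of the hairpin, the number of hairpin sequences, any hairpin in the mock virus, any drug selection and the time after infection are not stated in the sources used here. Replicates 2 and 3 of each group are marked as repeat samples and no separate cultures are named, so p-values reflect a spread between libraries that may be technical. The design text of the series asks which genes control cholesterol metabolism.

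Mitotic genes are transcribed in a wave that peaks in G2 and mitosis. Cyclin B with CDK1 starts mitosis, the aurora and polo-like kinases shape the spindle and its attachments, and the spindle checkpoint holds back the anaphase-promoting complex until every kinetochore is attached. Many of these genes carry a cell cycle homology region (CHR) in the promoter, the letters TTTGAA, bound by the MuvB core of the DREAM complex in resting cells and by MuvB with B-MYB and FOXM1 in dividing ones. CCAAT boxes, bound by NF-Y, often lie upstream. In tumours the summed level of such genes is widely used as a measure of proliferation. A whole-culture RNA level cannot tell fewer cells in mitosis from less RNA per mitotic cell.

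HMGB2, the gene the hairpin targets, encodes a DNA-bending chromatin protein. It had 22.1, 24.5 and 27.8 FPKM (fragments per kilobase of transcript and per fixed number of mapped fragments) in shHMGB2 libraries and 115.8, 111.4 and 108.6 FPKM in mock libraries. The groups did not overlap, and limma gave a log2 fold change of -2.14 (SE 0.084, adjusted p = 0.000113). All fold changes below are shHMGB2 over mock on the log2(FPKM + 1) scale, which understates changes at low levels, and all p-values are from limma with Benjamini-Hochberg adjustment over 13409 genes unless another source is named. Read depth is unknown, and size factors recovered from the authors' group values ranged from 0.699 to 1.31 in shHMGB2 libraries and from 0.874 to 1.21 in mock libraries. Profiles correlated at 0.985 to 0.989 within groups and 0.978 to 0.987 between groups. All 7 squamous markers were detected and tested, 3 of them fell, 0 rose and 4 did not pass, and their median log2 fold change was -0.14. Of all genes tested, 3.45% fell and 3.30% rose. KRT6A fell to 1418 ± 63.9 FPKM in shHMGB2 libraries, against 2068 ± 89.6 FPKM in mock libraries (SD, n = 3 each; log2 fold change -0.54, adjusted p = 0.00557). KRT14 and SFN also fell (-0.55 and -0.50, adjusted p = 0.00532 and 0.0171), whereas KRT5 had 3504 ± 329 FPKM in shHMGB2 libraries and 3376 ± 77.4 FPKM in mock libraries (SD, n = 3 each; adjusted p = 0.729). Of the 13 other-lineage markers found in the table, for fibroblasts, leukocytes and endothelium, 12 were under 1 FPKM in every library, and LUM had 2.11 to 3.71 FPKM.

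One library stood apart across all genes tested. Mock replicate 1 was the lowest of the 6 libraries for 34% of all genes tested, against 11.8% to 14.6% for each other library, and for 26 of the 47 mitotic genes tested. Without it, 6 of the 47 fitted differences changed sign (CDC20, UBE2C, BIRC5, KIF2C, KIF14 and ECT2). Of the 28 genes with a difference of at least 0.1 log2 units, 11 moved by more than 1.5 times, and each is given below with and without it. Among the mitotic genes, shHMGB2 replicate 2 was the highest library for 22 of the 47, against 1 to 8 for each other library. With shHMGB2 replicate 2 left out, 4 of the 47 fitted differences changed sign and 41 were positive.

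The promoters of the mitotic genes were searched for these letters. RefSeq promoters on GRCh38.p14, each running from 250 bases before to 50 bases after an annotated start, were matched by symbol for 41 of the 48 genes. TTK, BIRC5, AURKA, TPX2, UBE2C, BUB3 and FOXM1 had no entry. A CHR, searched as TTTGAA or its reverse complement TTCAAA, was in 30 of 41, or 73.2%, against 9.60% of 9658 promoters of tested genes and 15.4% of all 27305 promoters. The CHR was thus present in most of these promoters. Within 50 bases of the start it was in 58.5% of the mitotic promoters, 2.70% of those of tested genes and 4.67% of all. A CCAAT box, searched as CCAAT or ATTGG, was in 70.7% of the mitotic promoters, 37.4% of those of tested genes and 35.7% of all. Both motifs were in 56.1% of the mitotic promoters, 4.18% of those of tested genes and 6.08% of all. A match describes letters and is not a shown binding site, and motifs may overlap.

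The stretches shown run from 110 bases before the annotated start to 20 bases after it, with CHR and CCAAT letters in capitals. They are the promoters of NUSAP1, the gene that passed the test, of MKI67, ESPL1 and KIF11, whose groups did not overlap, and of CCNB2 and PLK1, which carry the same letters but whose groups overlapped. The CHR began at position 14 in NUSAP1 (the annotated start is position 1), -31 in ESPL1, -28 in KIF11 and -29 in CCNB2 and PLK1. In MKI67 the CHR nearest the start shares letters with a CCAAT box, so that TTTGAATTGG reads as 1 run. NUSAP1 lies at chr15:41332771-41332900 on the plus strand, MKI67 at chr10:128126404-128126533 on the minus strand and ESPL1 at chr12:53268189-53268318 on the plus strand. KIF11 lies at chr10:92593020-92593149, CCNB2 at chr15:59105036-59105165 and PLK1 at chr16:23678779-23678908, all on the plus strand.
NUSAP1: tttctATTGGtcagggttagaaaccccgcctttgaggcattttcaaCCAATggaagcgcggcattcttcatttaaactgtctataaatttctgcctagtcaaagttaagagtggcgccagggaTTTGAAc
MKI67: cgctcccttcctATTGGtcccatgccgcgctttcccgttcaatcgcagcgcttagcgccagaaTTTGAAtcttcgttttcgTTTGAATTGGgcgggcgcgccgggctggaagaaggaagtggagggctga
ESPL1: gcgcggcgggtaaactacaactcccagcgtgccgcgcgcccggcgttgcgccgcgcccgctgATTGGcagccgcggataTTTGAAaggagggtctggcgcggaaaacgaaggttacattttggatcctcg
KIF11: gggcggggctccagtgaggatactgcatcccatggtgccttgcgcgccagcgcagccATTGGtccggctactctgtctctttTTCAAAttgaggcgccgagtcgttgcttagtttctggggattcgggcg
CCNB2: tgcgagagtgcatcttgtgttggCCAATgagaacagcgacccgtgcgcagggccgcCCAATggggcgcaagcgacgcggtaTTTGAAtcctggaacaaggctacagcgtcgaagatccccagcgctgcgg
PLK1: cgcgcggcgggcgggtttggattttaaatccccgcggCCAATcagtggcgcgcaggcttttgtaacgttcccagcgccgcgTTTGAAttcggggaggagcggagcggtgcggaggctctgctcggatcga

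The mitotic genes were well expressed in both groups and most did not pass the test after HMGB2 knockdown. Of the 47 tested with limma, 1 rose, NUSAP1, 0 fell and 46 did not pass. A share of 2.13% called higher stood beside 3.30% of all genes tested, and 0 called lower stood beside 3.45%. At an unadjusted p under 0.05 there were 18 of the mitotic genes, 16 higher and 2 lower, and 3745 of all 13409 genes. Leaving out mock replicate 3 gave 4 calls, all higher (CENPF, KIF11, MKI67 and TOP2A), beside 444 higher and 424 lower of all genes tested. Leaving out any other single library gave 0, beside 96 to 353 higher and 192 to 445 lower of all genes tested. The fitted log2 fold changes ran from -0.21 for AURKB to 0.50 for CENPF, with 37 positive and 10 negative (35 positive under median-of-ratios scaling, 38 under upper-quartile scaling and 43 under quantile normalization). Their median was 0.12, against 0.035 over all genes tested, of which 57.0% were positive. The 95% interval lay within 0.5 log2 units of 0 for 35 of the 47, and no interval reached 1.

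The groups did not overlap for 16 of the mitotic genes. Every shHMGB2 library lay above every mock library for 14, or 29.8%, against 21.6% of all genes tested. Every shHMGB2 library lay below every mock library for 2, MAD2L1 and AURKB, or 4.26%, against 14.0% of all. With mock replicate 1 left out, 18 lay above and 3 below, against 26.4% and 18.5% of all genes tested. The genes' summed FPKM made up 0.422%, 0.455% and 0.434% of all FPKM in shHMGB2 libraries and 0.392%, 0.401% and 0.426% in mock libraries. The shares of shHMGB2 replicate 1 and mock replicate 3 crossed, so the groups overlapped in this sum.

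**Figure D1:**
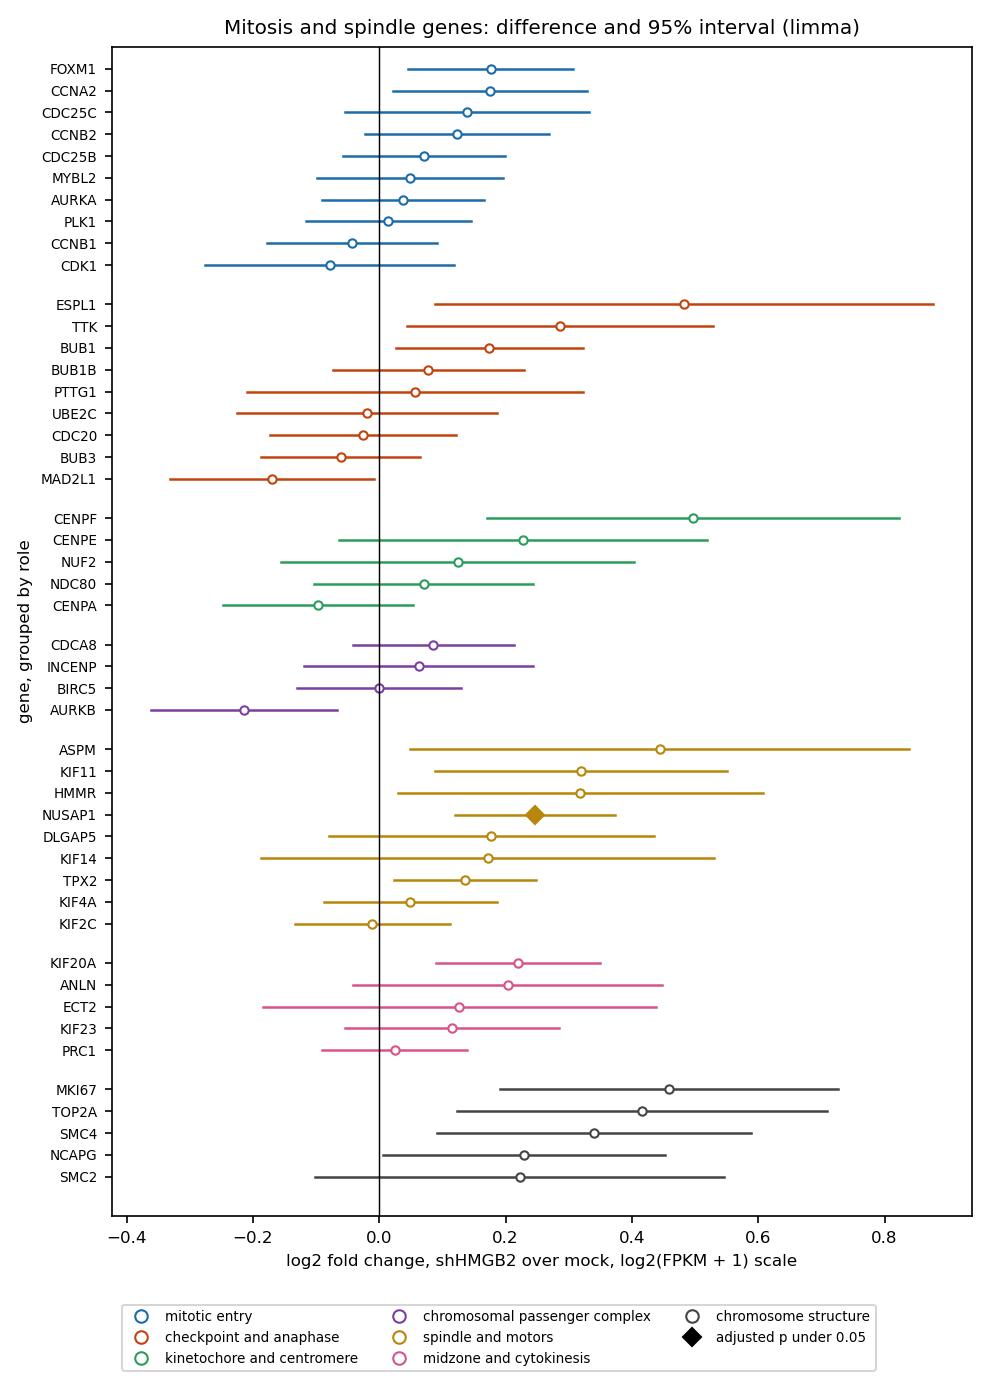
Fitted log2 fold change of shHMGB2 over mock (log2(FPKM + 1) scale, x axis) for each of the 47 mitotic genes tested, grouped by role, with the 95% interval from limma (3 libraries a group). The filled diamond is NUSAP1 at 0.25, the gene past an adjusted p of 0.05. Most intervals include 0, while 16 lie right of it and 2 lie left of it.

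The 10 genes of mitotic entry had a median log2 fold change of 0.060, none passed, and 8 of 10 were positive. CCNB1, the cyclin that activates CDK1 at the start of mitosis, was the most abundant of them. It had 160.2, 173.7 and 173.7 FPKM in shHMGB2 libraries and 179.9, 169.96 and 173.1 FPKM in mock libraries. The groups overlapped and the log2 fold change was -0.043 (SE 0.058, adjusted p = 0.654). CDK1 itself averaged 81.7 ± 8.39 FPKM in shHMGB2 libraries and 86.1 ± 4.61 FPKM in mock libraries (SD, n = 3 each). PLK1, the polo-like kinase, averaged 90.6 ± 3.06 FPKM in shHMGB2 libraries and 89.8 ± 3.45 FPKM in mock libraries (SD, n = 3 each), with a 95% interval of the log2 difference from -0.12 to 0.14. For each of these genes the groups overlapped. AURKA, which acts at the spindle poles, also overlapped, at 66.8 ± 2.56 FPKM in shHMGB2 libraries and 65.1 ± 1.88 FPKM in mock libraries (SD, n = 3 each).

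Of the transcription factors in this group, FOXM1 had 72.4, 65.9 and 68.9 FPKM in shHMGB2 libraries and 60.2, 60.5 and 62.2 FPKM in mock libraries. All shHMGB2 libraries were higher, and the log2 fold change of 0.18 (SE 0.056) did not pass (adjusted p = 0.0988). MYBL2, which encodes B-MYB, averaged 121.9 ± 5.69 FPKM in shHMGB2 libraries and 117.8 ± 6.23 FPKM in mock libraries (SD, n = 3 each). CCNA2, a cyclin of S phase and early mitosis, had 43.5, 49.8 and 45.5 FPKM in shHMGB2 libraries and 40.9, 39.5 and 42.1 FPKM in mock libraries. Here too the groups were apart without passing (log2 fold change 0.18, SE 0.066, adjusted p = 0.137). CCNB2, a second B cyclin, averaged 112.1 ± 5.47 FPKM in shHMGB2 libraries and 102.8 ± 4.95 FPKM in mock libraries (SD, n = 3 each). The phosphatases that activate CDK1 had log2 fold changes of 0.071 (CDC25B) and 0.14 (CDC25C), neither past the threshold. That of CDC25C was 0.078 without mock replicate 1.

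The 9 checkpoint and anaphase genes were split, with 5 positive, 4 negative, a median of 0.057 and none past the threshold. Without mock replicate 1, 7 of the 9 were positive and the median was 0.073. BUB1, a checkpoint kinase, had 71.8, 76.5 and 74.7 FPKM in shHMGB2 libraries and 62.8, 64.1 and 70.5 FPKM in mock libraries. MAD2L1, which inhibits the anaphase-promoting complex with BUB1B, BUB3 and CDC20, had 13.9, 16.0 and 15.1 FPKM in shHMGB2 libraries and 16.6, 16.7 and 17.6 FPKM in mock libraries. The groups of both genes were apart, BUB1 higher and MAD2L1 lower in all shHMGB2 libraries. The log2 fold changes were 0.17 (SE 0.063, adjusted p = 0.128) for BUB1 and -0.17 (SE 0.069, adjusted p = 0.161) for MAD2L1. TTK, the kinase that starts checkpoint signalling, averaged 32.5 ± 2.83 FPKM in shHMGB2 libraries and 26.5 ± 3.32 FPKM in mock libraries (SD, n = 3 each; log2 fold change 0.29, adjusted p = 0.129). BUB1B, BUB3, CDC20 and UBE2C, the conjugating enzyme of the anaphase-promoting complex, had log2 fold changes between -0.061 and 0.078.

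PTTG1, the securin that restrains separase, was the most abundant of the mitotic genes. It had 486.9, 497.3 and 546.6 FPKM in shHMGB2 libraries and 585.6, 438.1 and 458.2 FPKM in mock libraries. Mock replicate 1 was the highest library and mock replicates 2 and 3 the lowest, and the log2 fold change was 0.057 (SE 0.11, adjusted p = 0.772). Near-identical copies of PTTG1 exist, so reads may be shared between them.

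ESPL1, the separase that cuts cohesin at anaphase, has 2 rows in the table. The row named ESPL1 had 12.6, 9.44 and 8.66 FPKM in shHMGB2 libraries and 5.47, 7.38 and 8.30 FPKM in mock libraries. Its groups were apart and its log2 fold change was 0.48 (SE 0.17, adjusted p = 0.120). The second row, ESPL1-2, went the other way, with 2.08, 3.71 and 4.26 FPKM in shHMGB2 libraries and 5.50, 3.84 and 3.13 FPKM in mock libraries. The first row held 85.9%, 71.8% and 67.0% of the sum of both in shHMGB2 libraries and 49.9%, 65.8% and 72.6% in mock libraries. Summed, separase had 14.7, 13.2 and 12.9 FPKM in shHMGB2 libraries and 10.97, 11.2 and 11.4 FPKM in mock libraries. The sums were apart, with a log2 fold change of 0.26, smaller than that of the first row alone, and did not pass (SE 0.070, adjusted p = 0.0583).

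**Figure D2:**
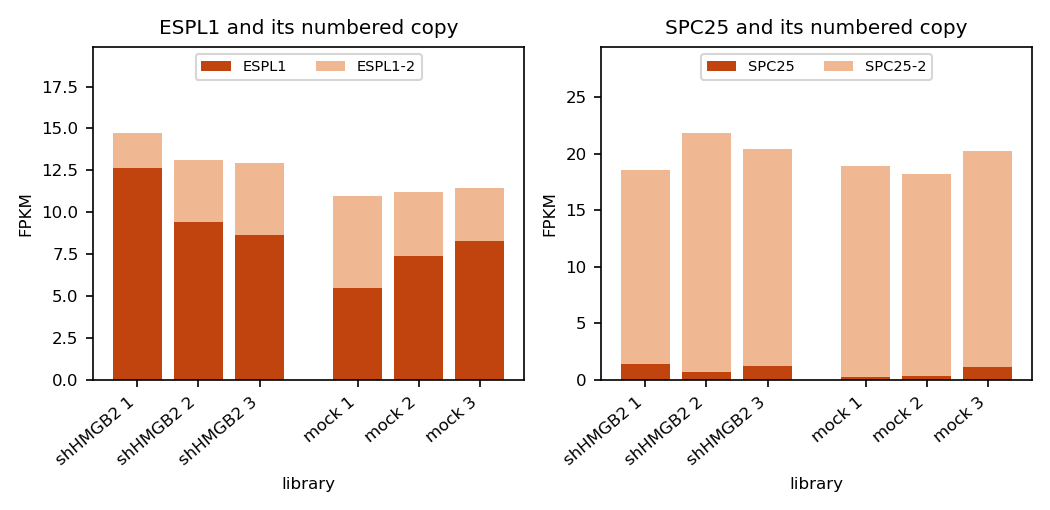
FPKM (y axis) in each library (x axis) of ESPL1 and SPC25, each stacked with the numbered copy that the table lists as a separate row. The first ESPL1 row ranges from 85.9% of the sum in shHMGB2 replicate 1 to 49.9% in mock replicate 1, where both rows are about equal. Nearly all SPC25 signal is in the copy.

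The 6 kinetochore and centromere genes had a median of 0.12 over the 5 tested, and none passed. CENPF, a large protein of the outer kinetochore, had 20.04, 21.1 and 17.7 FPKM in shHMGB2 libraries and 10.8, 14.3 and 16.1 FPKM in mock libraries. The groups were apart, and its log2 fold change of 0.50 was the highest of the mitotic genes (SE 0.14, adjusted p = 0.0752). Without mock replicate 1 it was 0.34 (adjusted p = 0.0879). CENPA, the histone variant that marks centromeres, had 36.4, 36.4 and 39.5 FPKM in shHMGB2 libraries and 38.1, 42.3 and 39.8 FPKM in mock libraries, which overlap. Its log2 fold change was -0.097 (SE 0.064, adjusted p = 0.358). CENPE, a kinetochore motor, was the least abundant gene tested, at 4.63 ± 0.517 FPKM in shHMGB2 libraries and 3.83 ± 0.716 FPKM in mock libraries (SD, n = 3 each). Its log2 fold change was 0.23 with all libraries and 0.12 without mock replicate 1, and the group's median was 0.035 without it.

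NDC80, NUF2 and SPC25 belong to the NDC80 complex, which grips the microtubule end. NDC80 averaged 38.8 ± 2.75 FPKM in shHMGB2 libraries and 36.9 ± 2.24 FPKM in mock libraries (SD, n = 3 each). NUF2 averaged 21.5 ± 2.96 FPKM in shHMGB2 libraries and 19.6 ± 2.28 FPKM in mock libraries (SD, n = 3 each). Both overlapped between groups, and the log2 fold change of NUF2 was 0.12 with all libraries and 0.035 without mock replicate 1. The row named SPC25 had 0.74 to 1.42 FPKM in shHMGB2 libraries and 0.27 to 1.15 FPKM in mock libraries, under the minimum mean, and was not tested. Its copy SPC25-2 had 17.1, 21.0 and 19.1 FPKM in shHMGB2 libraries and 18.6, 17.9 and 19.1 FPKM in mock libraries. The 2 rows summed gave a log2 fold change of 0.076 (SE 0.076, adjusted p = 0.535). The sum stood at 0.948 ± 0.061 of NUF2 in shHMGB2 libraries and 0.984 ± 0.11 in mock libraries (SD, n = 3 each), so the copy, and not the row of that name, was at the level of its partner.

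The 4 genes of the chromosomal passenger complex, which corrects wrong attachments, did not move as 1 group. AURKB, its kinase, had 90.9, 87.6 and 90.2 FPKM in shHMGB2 libraries and 111.3, 103.9 and 97.3 FPKM in mock libraries. All shHMGB2 libraries were lower, and the log2 fold change of -0.21 (SE 0.063), the lowest of the mitotic genes, did not pass (adjusted p = 0.0836). CDCA8, which encodes borealin, had 34.8, 32.5 and 33.4 FPKM in shHMGB2 libraries and 32.3, 31.0 and 31.4 FPKM in mock libraries. These groups were narrowly apart in the other direction (log2 fold change 0.085, SE 0.054, adjusted p = 0.341). BIRC5, which encodes survivin, averaged 64.7 ± 1.58 FPKM in shHMGB2 libraries and 64.8 ± 2.84 FPKM in mock libraries (SD, n = 3 each). INCENP, the scaffold, averaged 21.8 ± 2.09 FPKM in shHMGB2 libraries and 20.8 ± 0.625 FPKM in mock libraries (SD, n = 3 each), and neither gene's groups were apart.

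The 9 spindle and motor genes included the 1 gene that passed. NUSAP1, which binds and bundles spindle microtubules near chromatin, had 81.6, 86.3 and 82.2 FPKM in shHMGB2 libraries and 67.6, 70.6 and 72.2 FPKM in mock libraries. Every shHMGB2 library was higher, by 18.9% between the means, and the log2 fold change was 0.25 (SE 0.054, adjusted p = 0.0408). It was near the threshold: with any 1 of the 6 libraries left out, the log2 fold change ranged from 0.22 to 0.27 and the adjusted p from 0.0553 to 0.153, so the call was lost each time. Over all 19 alternative settings it passed in 9, with an adjusted p from 0.00388 to 0.153. TPX2, which activates AURKA and nucleates microtubules, was the most abundant of this group. It had 102.7, 101.8 and 104.4 FPKM in shHMGB2 libraries and 93.5, 92.5 and 94.9 FPKM in mock libraries, tight within each group and apart. Its log2 fold change of 0.14 did not pass (SE 0.048, adjusted p = 0.123).

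KIF11, the motor that pushes spindle poles apart, had 27.8, 29.9 and 27.5 FPKM in shHMGB2 libraries and 19.5, 22.7 and 25.8 FPKM in mock libraries. HMMR, a spindle assembly factor and hyaluronan receptor, had 67.8, 81.6 and 67.9 FPKM in shHMGB2 libraries and 48.6, 59.5 and 66.4 FPKM in mock libraries. Both were apart, with mock replicate 1 the lowest library and mock replicate 3 the nearest to shHMGB2. Their log2 fold changes were 0.32 (SE 0.099, adjusted p = 0.0944) for KIF11 and 0.32 (SE 0.12, adjusted p = 0.147) for HMMR. ASPM, a spindle pole protein, had a log2 fold change of 0.44 (SE 0.17, adjusted p = 0.142), but shHMGB2 replicate 3 at 14.6 FPKM lay under mock replicate 3 at 14.7 FPKM. Without mock replicate 1 the log2 fold changes were 0.25 for ASPM and 0.20 for HMMR. DLGAP5 and KIF14 had log2 fold changes of 0.18 and 0.17, and the microtubule depolymerase KIF2C and the chromokinesin KIF4A had -0.011 and 0.049, all with overlapping groups. KIF14 was -0.015 without mock replicate 1.

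The 5 genes of the midzone and cytokinesis were all positive, with a median of 0.13, and none passed. Without mock replicate 1, 4 of the 5 were positive and the median was 0.058. KIF20A, a motor of the central spindle, had 45.6, 44.4 and 46.3 FPKM in shHMGB2 libraries and 38.6, 37.4 and 40.6 FPKM in mock libraries. The groups were apart with small spread (log2 fold change 0.22, SE 0.056, adjusted p = 0.0592). PRC1, which bundles antiparallel microtubules between the poles, had 140.8, 144.2 and 140.96 FPKM in shHMGB2 libraries and 136.4, 140.7 and 141.6 FPKM in mock libraries. These overlapped, with a log2 fold change of 0.025 (SE 0.049, adjusted p = 0.771). KIF23 and ECT2, which place the contractile ring through RhoA, had 0.12 and 0.13, and the ring scaffold ANLN had 0.20 (adjusted p = 0.335, 0.561 and 0.247). They were 0.058 for KIF23, -0.013 for ECT2 and 0.12 for ANLN without mock replicate 1.

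**Figure D3:**
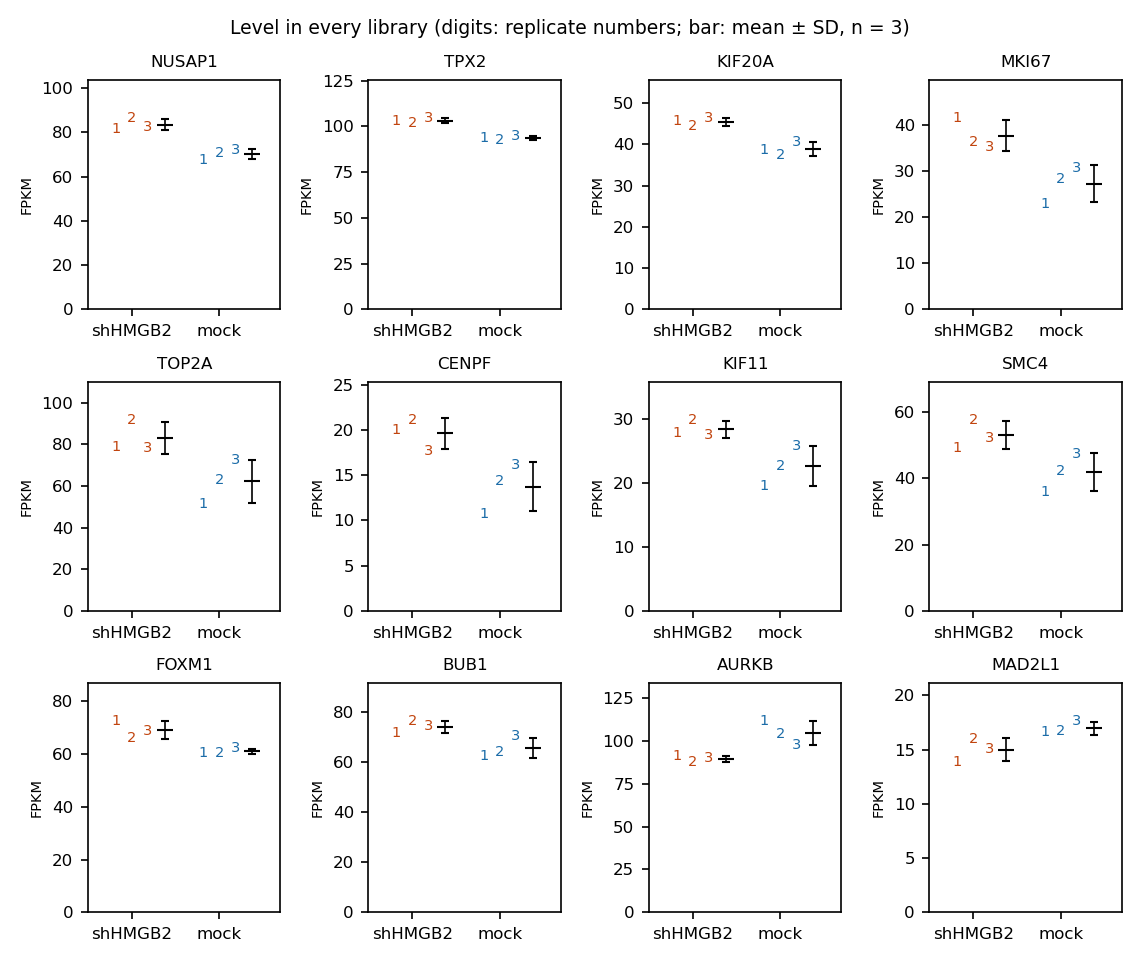
FPKM (y axis, from 0) of 12 mitotic genes in each library, shHMGB2 left and mock right, with digits for the replicate numbers and bars for the mean ± SD (n = 3). NUSAP1 and TPX2 separate with little spread. Mock replicate 1 is the lowest library for MKI67, TOP2A, CENPF, KIF11 and SMC4, and also for NUSAP1, FOXM1 and BUB1. AURKB and MAD2L1 are lower in shHMGB2.

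The 5 genes of chromosome structure had the highest median of the role groups, 0.34 (0.24 without mock replicate 1), and all were positive, but none passed. TOP2A, the topoisomerase that untangles sister chromatids, had 78.5, 91.9 and 78.4 FPKM in shHMGB2 libraries and 51.6, 63.0 and 72.4 FPKM in mock libraries. MKI67, the Ki-67 proliferation antigen that coats mitotic chromosomes, had 41.4, 36.2 and 35.2 FPKM in shHMGB2 libraries and 22.8, 28.3 and 30.7 FPKM in mock libraries. SMC4, a condensin subunit, had 49.2, 57.7 and 52.4 FPKM in shHMGB2 libraries and 36.0, 42.3 and 47.4 FPKM in mock libraries. For all 3 the groups were apart and mock replicate 1 was lowest. The log2 fold changes were 0.42 for TOP2A (SE 0.13, adjusted p = 0.0885), 0.46 for MKI67 (SE 0.11, adjusted p = 0.0578) and 0.34 for SMC4 (SE 0.11, adjusted p = 0.0955). Without mock replicate 1 they were 0.29, 0.34 and 0.24, with adjusted p = 0.134, 0.0738 and 0.154. The condensin genes NCAPG and SMC2 had 0.23 and 0.22, with overlapping groups, and 0.14 and 0.084 without mock replicate 1. In GENCODE 29, 72.8% of the exonic bases of NUSAP1 and 65.2% of those of PRC1 are shared with a gene model on the same strand, AC087721.2 and AC068831.7, so reads of either pair cannot be told apart there. In the same annotation, 35.0% of the exonic bases of NCAPG and 23.9% of those of SMC4 lie opposite exons of LCORL and TRIM59, and no source used here says whether counting used strand.

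The authors' deposited table holds a test of their own, of a kind that no source used here names, and it called more of these genes. In the authors' deposited table, 8 of the 48 were higher at an adjusted p under 0.05, or 16.7%, against 6.13% of the 13585 genes with an adjusted p there. In the authors' deposited table, 2 were lower, or 4.17%, against 9.23%. The higher ones in the authors' deposited table were MKI67 (log2 fold change 0.44, adjusted p = 0.000937), CENPF (0.46, 0.00214), TOP2A (0.36, 0.00928), ESPL1 (0.49, 0.0142), SMC4 (0.28, 0.0275), ASPM (0.42, 0.0285), KIF11 (0.27, 0.0368) and NUSAP1 (0.19, 0.0379). The lower ones in the authors' deposited table were AURKB (log2 fold change -0.30, adjusted p = 0.00785) and MAD2L1 (-0.24, 0.0342). Of the 10 genes called in the authors' deposited table, 9 were also apart between groups in FPKM, and ASPM was the exception. Both come from the same 6 libraries, so this is not separate support. Of all genes tested, 21.6% were apart with shHMGB2 higher and 14.0% with shHMGB2 lower. The median log2 fold change over the 48 genes in the authors' deposited table was 0.064. The second row of separase, ESPL1-2, was at -0.41 in the authors' deposited table (adjusted p = 0.598). Log2 fold changes in the authors' deposited table also rose with transcript length, which is described below. Spearman's correlation was 0.60 over the 47 mitotic genes tested and 0.41 over all tested with a length.

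Ratios between partners and paralogues, which do not depend on how a library was scaled, were computed for 10 pairs as a description. They can still differ with transcript length, which is 2248 bases for AURKA and 1254 bases for AURKB. How often ratios of other gene pairs are apart was not computed. Of single genes tested, 21.6% were apart with shHMGB2 higher and 14.0% with shHMGB2 lower. AURKA stood at 0.713, 0.753 and 0.773 of AURKB in shHMGB2 libraries and at 0.603, 0.621 and 0.652 in mock libraries, which do not overlap. CCNB1 stood at 1.49, 1.56 and 1.47 times CCNB2 in shHMGB2 libraries and at 1.66, 1.67 and 1.76 times in mock libraries, again apart and in the other direction. BUB1 over BUB1B was narrowly apart, at 2.79, 2.80 and 3.02 in shHMGB2 libraries and 2.71, 2.59 and 2.76 in mock libraries. The other 7 ratios overlapped, among them CCNB1 over CDK1, at 2.08 ± 0.13 in shHMGB2 libraries and 2.03 ± 0.15 in mock libraries, and AURKB over INCENP, at 4.12 ± 0.39 in shHMGB2 libraries and 5.02 ± 0.49 in mock libraries (SD, n = 3 each).

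The differences among the mitotic genes followed transcript length, which was not part of how they were chosen. Lengths came from GENCODE 29 for all 47 genes tested and for 80.6% of all genes tested. Spearman's correlation across genes between length and log2 fold change was 0.57 over the 47 genes and 0.38 over all tested with a length, as a description, since genes in the same libraries are not independent. Level moved with the differences too, with a Spearman correlation between level and log2 fold change of -0.50 over the 47 genes and -0.23 over all tested with a length. The 4 genes with transcripts under 1500 bases had a median log2 fold change of -0.058, and those of 1500 to 2500, 2500 to 4000 and 4000 to 6000 bases had 0.070 (11 genes), 0.13 (16 genes) and 0.22 (9 genes). The 7 genes over 6000 bases, BUB3, ESPL1, CENPE, CENPF, KIF14, ASPM and MKI67, had 0.44. All genes tested had medians of -0.080, -0.015, 0.037, 0.096 and 0.16 in the same length classes. NUSAP1, at 1629 bases, was the highest mitotic gene of its length class, and MAD2L1, at 5468 bases, and BUB3, at 7828 bases, were the lowest of theirs.

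**Figure D4:**
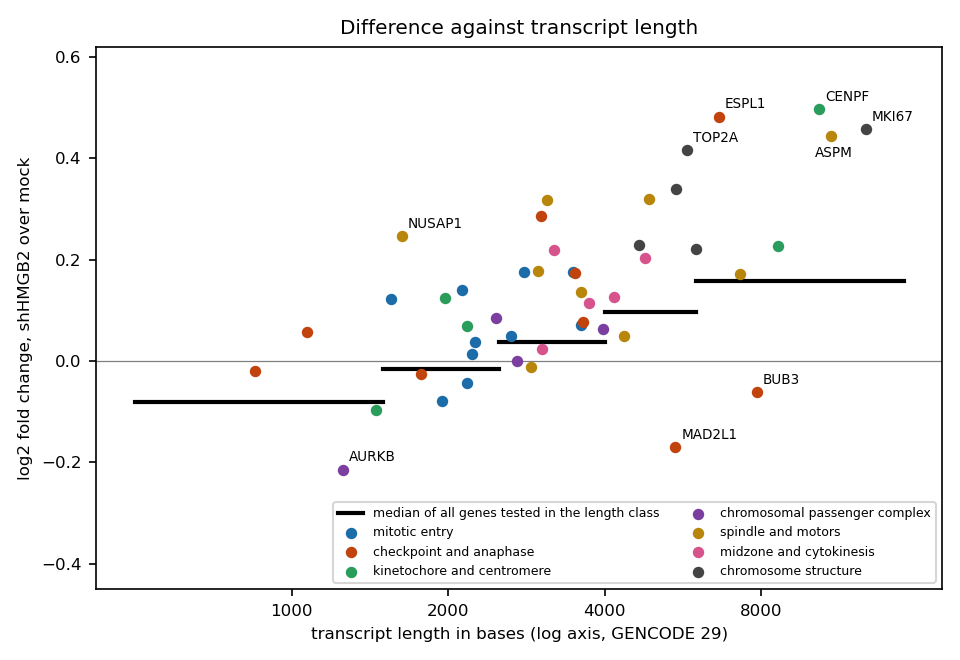
Log2 fold change of shHMGB2 over mock (y axis) against transcript length in bases (x axis, log scale) for the 47 mitotic genes tested, coloured by role, with the median of all genes tested in 5 length classes as black bars. The genes over 6000 bases have a median of 0.44, above the 0.16 of all genes of that length, and AURKB, MAD2L1 and BUB3 lie below 0.

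Mock replicate 1 moved with this order. In the class over 6000 bases the genes' median deviation from their own mean was 0.22, 0.18 and 0.057 log2 units in shHMGB2 libraries and -0.47, -0.16 and -0.011 in mock libraries. Among all genes tested of that length it was 0.11, 0.085 and 0.043 in shHMGB2 libraries and -0.22, -0.041 and 0.029 in mock libraries. Without mock replicate 1 the correlation with length was 0.32 over the mitotic genes and 0.20 over all tested, and the medians over 6000 bases were 0.25 and 0.089. With a trend on length taken out of each library, an alternative added after the data were seen, the medians over 6000 bases were 0.26 and 0.0078. In that fit 4 of the mitotic genes were higher, CENPF (adjusted p = 0.0221), MKI67 (0.0160), NUSAP1 (0.0123) and TOP2A (0.0331), and 1 was lower, MAD2L1 (0.0221). Of all 10805 genes with a length, it called 778 higher and 989 lower. On the same genes with the trend left in, 7 mitotic genes were higher and 0 lower. Among all of them, 867 were then higher and 665 lower. The part of transcript length or of level in the differences was not tested.

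**Figure D5:**
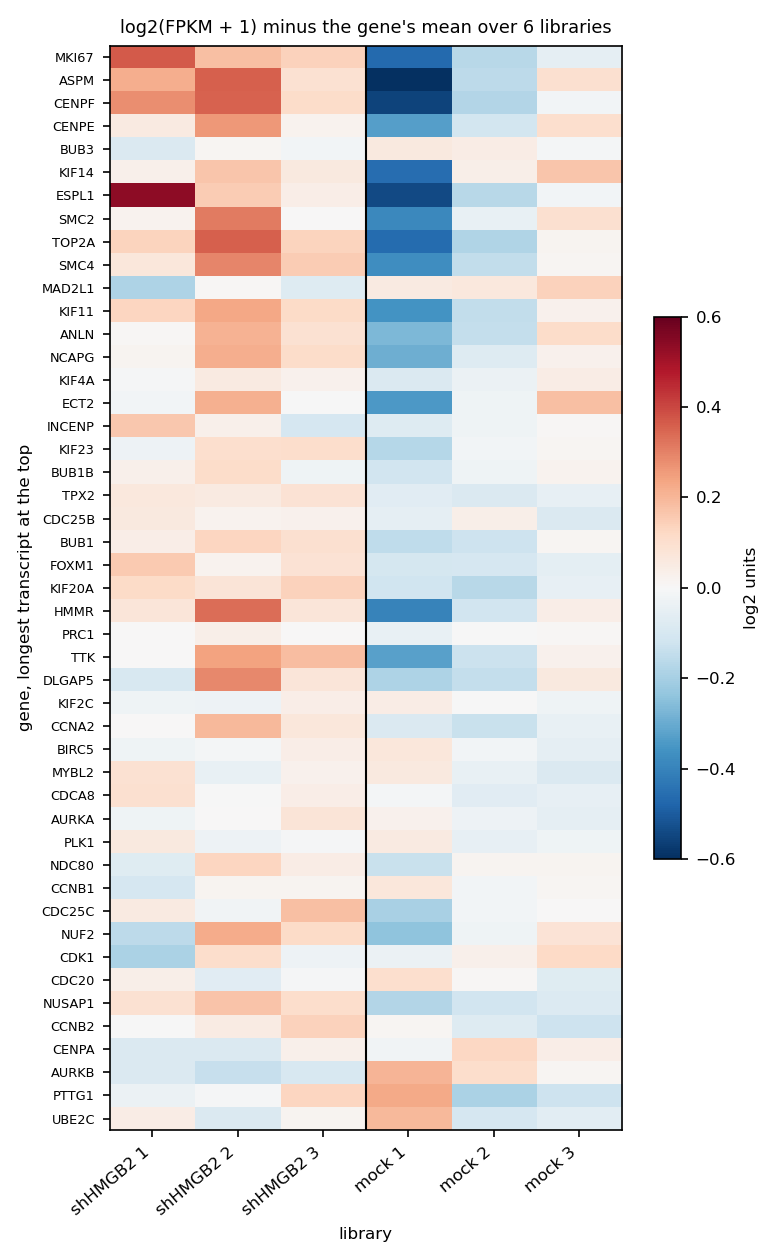
Deviation of each library (columns, shHMGB2 left, mock right) from the gene's mean over the 6 libraries, in log2(FPKM + 1) units, for the 47 mitotic genes tested (rows, longest transcript at the top). Mock replicate 1 is lowest for 26 genes, among them most of the long ones but also short ones such as NUSAP1. It is highest for 8, among them the short UBE2C, PTTG1 and AURKB and the long BUB3.

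In the wider mitotic machinery, a list of 122 further genes, 2 genes rose and 4 fell, while 116 missed the threshold, and the median log2 fold change was 0.10. Of all genes tested, 3.30% rose and 3.45% fell. RAN, the GTPase that guides spindle assembly around chromatin, had 175.5, 191.6 and 193.1 FPKM in shHMGB2 libraries and 333.3, 310.5 and 299.3 FPKM in mock libraries. It fell by 0.75 on the log2 scale (SE 0.066, adjusted p = 0.00154), far outside the spread between libraries, though reads may be shared with its processed pseudogenes. DSN1, a subunit of the MIS12 kinetochore complex that docks NDC80, had 16.8, 16.4 and 17.1 FPKM in shHMGB2 libraries and 21.7, 28.3 and 24.5 FPKM in mock libraries, and fell (log2 fold change -0.53, SE 0.094, adjusted p = 0.0195). Subunits of the anaphase-promoting complex moved both ways: ANAPC10 and ANAPC11 fell (log2 fold changes -0.39 and -0.35, adjusted p = 0.0290 and 0.0371) and CDC23 rose (0.35, adjusted p = 0.00996). The other gene that rose was DEPDC1B (0.25, adjusted p = 0.0495), named after its value was seen. In the authors' deposited table, 5 of the 122 were higher and 10 lower, beside 6.13% and 9.23% of all genes there.

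Neighbouring stages of the cycle gave the following, beside 3.30% of all genes tested called higher and 3.45% called lower. Of 41 replication genes, 1 rose and 2 fell, 38 missed the threshold, and the median log2 fold change was 0.059. MCM10, an assembly factor of the replication fork, averaged 10.8 ± 0.715 FPKM in shHMGB2 libraries and 14.0 ± 0.250 FPKM in mock libraries (SD, n = 3 each; adjusted p = 0.0255). CDC6, which loads the helicase, averaged 28.7 ± 1.36 FPKM in shHMGB2 libraries and 34.2 ± 0.378 FPKM in mock libraries (SD, n = 3 each; adjusted p = 0.0467). ORC1 rose (log2 fold change 0.23, adjusted p = 0.0495). Of 21 G1 regulators tested, 2 rose, 5 fell and 14 did not pass. CCND1, cyclin D1, had 19.9, 20.5 and 21.1 FPKM in shHMGB2 libraries and 50.1, 52.1 and 57.5 FPKM in mock libraries (log2 fold change -1.33, SE 0.067, adjusted p = 0.000266). CDKN1A, the p21 inhibitor, fell by 0.88 on the log2 scale, CDK6 by 0.65 and E2F1 by 0.56, while CDKN1B, the p27 inhibitor, rose by 0.44 (adjusted p = 0.00303, 0.0344, 0.00477 and 0.0122). CCND3 (-0.33) and CCND2 (0.24), named after their values were seen, were the others that passed. The fall of CCND1 was larger than any fitted difference among the 48 mitotic genes, of which the largest was 0.50 for CENPF.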

How the data were processed

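RNA was measured by RNA-seq in 3 shHMGB2 and 3 mock libraries of KYSE450 cells. Per the submitters' processing notes, Bowtie2 2.2.5, RSEM 1.2.12 and hg38 were used, with no role stated. The authors deposited FPKM per gene and library, per the file headers. The authors also deposited a group signal per gene, the log2 of the ratio of these signals, and a p-value and adjusted p-value, per the file headers, from a test that the sources used here do not name. No per-library counts were used, and whole reads per gene were not recovered, so no count test was run.

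The 13409 genes averaging at least 1 FPKM were fitted as log2(FPKM + 1) with limma 3.58.1 (R 4.3.3) on group alone, with a mean-variance trend. Adjustment was by Benjamini-Hochberg over all genes tested, at 0.05, 2-sided, and the fit was tested on simulated data. The depth of each library is unknown. Size factors came from genes seen in 1 library, whose mean of the group signals is a whole multiple of 1 step.

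The 48 genes and the other lists were chosen with earlier results of these data known. Per-library values are given for genes past the threshold, genes whose groups did not overlap and the most abundant gene of each role. From other lists, cell type markers included, the genes past the threshold are named, at most 5 a list, and any named beyond that are marked. Alternatives covered the pseudocount, the filter, scaling, the variance model, library weights, summed copies, the threshold, a replicate block and leaving out single libraries. After the data were seen, removal of a length trend and a fit on genes with a length were added.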

Additional observations from a re-analysis of the deposited data

How the results depend on the processing

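HMGB2 passed with log2 fold changes from -2.22 to -2.06 in all 19 alternatives, and the median of the mitotic genes ranged from 0.081 to 0.15. The counts of calls did depend on the setting. With 1 library left out, genes called over all tested ranged from 96 to 444 higher and 192 to 445 lower, mitotic genes from 0 to 4 higher and 0 lower, and the other mitosis genes from 0 to 3 higher and 1 to 3 lower. The 4 mitotic genes, called without mock replicate 3, were CENPF, KIF11, MKI67 and TOP2A. With no filter on low values, 167 genes were higher and 245 lower, no mitotic gene was called (0), and 1 other mitosis gene was called each way. Library weights, which gave mock replicate 1 a weight of 0.246 and mock replicate 2 one of 6.04, called 2436 higher and 1758 lower, with 18 and 2 mitotic genes and 31 and 9 other mitosis genes. An adjusted p of 0.10 called 1156 higher and 878 lower, with 8 and 1 mitotic genes and 14 and 5 other mitosis genes. Removal of a length trend called 778 higher and 989 lower, with 4 and 1 mitotic genes and 9 and 6 other mitosis genes. Genes with a length alone gave 867 higher and 665 lower, with 7 and 0 mitotic genes and 10 and 6 other mitosis genes. Median-of-ratios scaling split the calls into 350 higher and 571 lower, against 442 and 463. With this scaling 0 mitotic genes were called, and 1 other mitosis gene was higher and 4 were lower. A mean of at least 5 FPKM called 423 higher and 475 lower, with 2 and 0 mitotic genes and 6 and 4 other mitosis genes. Summed copies called 566 higher and 536 lower, with 2 and 0 mitotic genes and 6 and 4 other mitosis genes. Quantile normalization called 445 higher and 571 lower, with 2 and 0 mitotic genes and 3 and 4 other mitosis genes. Leaving out the mean-variance trend called 431 higher and 427 lower, with 0 mitotic genes and 1 and 3 other mitosis genes. Upper-quartile scaling called 463 higher and 463 lower, with 1 and 0 mitotic genes and 1 and 4 other mitosis genes. The causes of these shifts were not tested.

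Libraries with the same replicate number did not deviate together (correlations -0.012, -0.038 and -0.096), so no pairing by number was seen in these values. They cannot show that no pairing existed. A fit with the replicate block called 138 genes higher and 234 lower, with 0 mitotic genes and 1 and 2 other mitosis genes.

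With 3 libraries a group and unknown read depth, a difference that did not pass is not shown to be absent. Fold changes of genes near the minimum level, such as CENPE, are understated by the pseudocount of 1. Transcript models shared by neighbouring genes, and copies listed as separate rows, limit what a single row can show.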
